A study of Mus musculus with 30 samples.

Results

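The nicotinic acetylcholine receptor of skeletal muscle and the proteins that cluster it under the nerve terminal are encoded in mouse by *Chrna1*, *Chrnb1*, *Chrnd*, *Chrng*, *Chrne*, *Musk* and *Rapsn*. These 7 genes were read from all 30 arrays of an expression study of C2C12 cells. A probe set was taken for a gene when the platform table gave it that gene's symbol and no other. This gave 9 probe sets for the 7 genes, out of 34958 probe sets for 18194 genes on the array. Where a gene had several probe sets, which was the case for *Chrng*, the brightest over the 30 arrays represented it.

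The muscle receptor is a pentameric cation channel that opens when acetylcholine from a motor neuron binds to it, and the resulting current starts contraction. The alpha, beta and delta subunits are joined by the gamma subunit in embryonic and non-innervated muscle and by the epsilon subunit at the mature synapse. MuSK is the receptor tyrosine kinase through which agrin and Lrp4 organise the postsynaptic membrane, and rapsyn is the scaffold that binds the receptors and holds them in clusters. Myoblasts switch these genes on as they fuse to myotubes, and myogenic factors such as MyoD and myogenin act through E-boxes in their promoters.

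C2C12 is a mouse myoblast line that forms myotubes after growth factors are reduced and turns to an osteoblast-like program when bone morphogenetic protein 2 (BMP2) is added. C2C12-pMirn378 cells carried a lentiviral miR-378 precursor construct and control C2C12-pMirn0 cells the parent vector, and both were stable lines sorted on the fluorescent reporter of the vector. Each line was sampled before treatment (d0), on d3 and d6 in differentiation medium alone (untreated), and on the same days with recombinant human BMP2 at 300 ng/ml, which makes 10 groups of 3 arrays. The cultures held no neurons, the replicates were repeat experiments on the same transduced lines, and p-values therefore measure the spread between these experiments. The series' design text gives the construct and the parent vector in the opposite order, and the direction used here follows the study's methods.

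Levels are average expression values (AEV), the mean of the deposited linear intensities of 3 arrays, and differences are log2 ratios from limma. The word called is used for a log2 ratio larger than 0.6 in size whose adjusted p lay under 0.005. The study's methods set these limits for the lines at each time point and treatment. For change over d0 they applied the p limit at d6 and the size limit to the average of the d3 and d6 ratios. Here the limits were applied to each comparison on its own, so calls over d0 are not those of the study. Deposited values ran from 0.0561 to 40201 with a median of 76.5. The replicate SD on the log2 scale had a median of 0.116 in the brighter probe sets and 0.585 in the dimmer ones, and no array stood apart from its group (lowest correlation within a group 0.986 over the brighter probe sets). *Chrne* was dim, with a mean log2 level of 4.95 over the 30 arrays against 6.18 for the middle probe set of the array, and rose above that level in the d6 untreated groups alone (6.52 and 6.48). No detection calls were used here, so whether a dim value lies above background was not tested. Markers of the labelled cell type were present: the summed intensity of 15 myotube markers was 49310 to 50106 in C2C12-pMirn0 arrays at d0 and 218590 to 242460 at d6 untreated. Of 8 neuron and Schwann cell markers 5 to 7 had a mean under the array median in each group. The median of all probe sets moved by more than 0.1 on the log2 scale in 3 comparisons: -0.13 for C2C12-pMirn0 d6 untreated over d0, 0.11 for C2C12-pMirn378 d3 untreated over d0 and 0.12 for C2C12-pMirn0 d6 BMP2 over untreated. Ratios near 0.6 are to be read beside these shifts.

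Promoter sequence was available for 5 of the 7 genes, and the 250 bases before the transcription start are shown because most of these genes moved together and E-boxes (CANNTG, its own reverse complement) are the element known for muscle genes. *Chrnd* and *Rapsn* are named only. *Chrnd* and *Chrng* are neighbours on chromosome 1 with no protein-coding gene of the reference between them. Sequences are RefSeq, build GRCm38.p6, 5′ to 3′ on the strand of the gene, with E-boxes in capitals and, in *Chrne*, the N-box CCGGAA (searched on both strands) in capitals as well.
Chrng, chr1:87205561-87205810, plus strand: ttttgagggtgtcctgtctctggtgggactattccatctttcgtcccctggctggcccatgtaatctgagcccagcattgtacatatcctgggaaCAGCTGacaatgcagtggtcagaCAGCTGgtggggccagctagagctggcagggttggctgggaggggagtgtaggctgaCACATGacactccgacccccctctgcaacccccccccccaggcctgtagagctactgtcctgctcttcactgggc
Chrna1, chr2:73580339-73580588, minus strand: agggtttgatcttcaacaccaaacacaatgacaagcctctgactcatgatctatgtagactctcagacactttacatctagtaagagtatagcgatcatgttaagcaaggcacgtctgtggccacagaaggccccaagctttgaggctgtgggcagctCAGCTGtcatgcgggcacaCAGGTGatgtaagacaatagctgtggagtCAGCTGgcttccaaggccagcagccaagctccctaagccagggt
Chrnb1, chr11:69795938-69796187, minus strand: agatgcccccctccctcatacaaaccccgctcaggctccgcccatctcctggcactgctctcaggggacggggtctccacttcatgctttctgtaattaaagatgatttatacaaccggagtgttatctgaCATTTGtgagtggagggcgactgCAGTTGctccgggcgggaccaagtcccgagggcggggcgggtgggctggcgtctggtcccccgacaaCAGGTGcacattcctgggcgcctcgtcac
Chrne, chr11:70619195-70619444, minus strand: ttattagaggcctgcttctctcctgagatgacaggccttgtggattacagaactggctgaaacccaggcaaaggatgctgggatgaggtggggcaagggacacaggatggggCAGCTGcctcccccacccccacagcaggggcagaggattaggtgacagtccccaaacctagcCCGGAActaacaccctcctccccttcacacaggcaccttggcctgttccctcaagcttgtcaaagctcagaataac
Musk, chr4:58285712-58285961, plus strand: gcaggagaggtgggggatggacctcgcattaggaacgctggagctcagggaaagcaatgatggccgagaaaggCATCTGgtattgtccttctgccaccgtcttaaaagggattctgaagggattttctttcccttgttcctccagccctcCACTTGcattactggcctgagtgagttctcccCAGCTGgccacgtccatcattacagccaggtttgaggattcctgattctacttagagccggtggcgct
An E-box was found in all 5 windows, and in 66.2% of the 32851 windows of this length in the reference. The windows of *Chrng*, *Chrna1*, *Chrnb1* and *Musk* each held 3, a number that 12.2% of all windows reached or passed, and that of *Chrne* held 1. The form CAGCTG was present in 4 of the 5 (*Chrng*, *Chrna1*, *Chrne*, *Musk*) and in 13.0% of all windows. In *Chrng* the first bases of its CAGCTG matches lay 155 and 132 bases before the start, and in *Chrna1* 92 and 44 bases before it. The N-box, known from synaptic promoters, occurred once, in *Chrne*, 76 bases before the start, and in 12.03% of all windows. A match of letters is a description and not evidence of binding.

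Without BMP2, *Chrng*, *Chrnd*, *Chrnb1*, *Musk* and *Rapsn* were called higher than d0 on both days in both lines, *Chrne* at d6 in both lines, and *Chrna1* at d6 in C2C12-pMirn0 cells. In C2C12-pMirn0 cells 5 of the 7 genes were called higher at d3 and 7 of 7 at d6, and none was called lower. Of all 45101 probe sets 18.1% were called at d3 and 20.2% at d6, and 9.18% were called higher and 11.0% lower at d6. In C2C12-pMirn378 cells 5 genes were called higher at d3, where 19.7% of all probe sets were called, and 6 at d6, where 20.9% were. The median log2 ratio of the 7 genes for C2C12-pMirn0 d6 untreated over d0 was 1.13, against -0.13 for all probe sets. In bulk RNA a larger share of myotubes and more RNA of a gene in each cell cannot be told apart.

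*Chrng*, which encodes the embryonic gamma subunit and which the study itself shows as a muscle marker from these arrays, rose most. Its intensities in C2C12-pMirn0 cells were 563, 523 and 560.4 at d0, 6953, 6517 and 7519.8 at d3 untreated, and 7979.6, 8401 and 7478 at d6 untreated. Every array after d0 was above every d0 array. The log2 ratio over d0 was 3.67 (SE 0.14, adjusted p = 1.5e-15) at d3 and 3.86 (SE 0.14, adjusted p = 7.2e-16) at d6. In C2C12-pMirn378 cells it was 3.90 and 3.75 with the same standard error.

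*Chrnd*, the delta subunit gene next to *Chrng*, read 201, 132 and 132 at d0 in C2C12-pMirn0 cells and 870.0, 905 and 835 at d6 untreated. The groups did not overlap, and the log2 ratio was 2.52 (SE 0.56, adjusted p = 0.00088). It was 2.39 at d3, and 2.51 and 2.34 at d3 and d6 in C2C12-pMirn378 cells. The 4 calls rest on a standard error set by all 10 groups, including dim ones. The d3 call in C2C12-pMirn0 cells was lost without any of 4 of its arrays and the d6 call in C2C12-pMirn378 cells without any of its 6 arrays, at log2 ratios of 2.28 to 2.4.

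*Chrnb1*, the beta subunit gene, was already at 2085, 2229 and 2137 at d0 in C2C12-pMirn0 cells and reached 5229, 4989 and 5389 at d3 untreated. The d6 arrays, at 4661, 4515 and 4747, all lay below the d3 arrays, although this step was not called (log2 ratio -0.16, adjusted p = 0.48). Over d0 the log2 ratio was 1.27 at d3 and 1.11 at d6 (SE 0.12, adjusted p = 5.1e-08 at d6). In C2C12-pMirn378 cells it was 1.13 and 0.75, both called.

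*Chrna1*, the gene of the alpha subunit that binds acetylcholine, was bright before differentiation and changed least. C2C12-pMirn0 arrays read 11639, 12566 and 11516 at d0, 16085, 13544 and 16335 at d3 untreated and 19263, 19289 and 17289 at d6 untreated. The 3 days did not overlap, but the log2 ratios were 0.36 at d3 (adjusted p = 0.001, below the size limit) and 0.64 at d6 (SE 0.08, adjusted p = 7.4e-07, called). In C2C12-pMirn378 cells they were 0.39 and 0.40, neither of which passed the size limit. Whether so bright a probe set responds in proportion was not tested.

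*Chrne*, the adult epsilon subunit gene, was near the dim end of the scale. Its d0 arrays read 9.15, 41.3 and 7.12 in C2C12-pMirn0 cells, its d3 untreated arrays 32.6, 60.0 and 48.1, and its d6 untreated arrays 93.3, 89.4 and 93.0. Arrays of d0 and d3 overlapped and those of d6 stood above all of d0 and d3. The d6 change was called in C2C12-pMirn0 cells (log2 ratio 2.72, SE 0.63, adjusted p = 0.0012) and in C2C12-pMirn378 cells (2.31, adjusted p = 0.0049). With values under 50 set to 50, the log2 ratios shrank to 0.88 and 0.84 and were called. All d0 and BMP2 arrays of *Chrne* lie under 50, so the floor takes away their spread and its calls add no support. Of the calls without the floor, the first was lost without C2C12-pMirn0 d0 replicate 1 or 3 (2.24 to 2.42), and the second without any of 5 of its 6 arrays (1.79 to 2.43).

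*Musk*, the gene of the synaptic organiser kinase, was lowest at d0 in both lines. C2C12-pMirn0 arrays read 296, 250.4 and 246 at d0, 624, 755 and 502 at d3 untreated and 581, 554 and 591 at d6 untreated. No d3 or d6 array reached down to d0, and d3 and d6 overlapped. The log2 ratio over d0 was 1.23 (SE 0.17, adjusted p = 2.8e-06) at d3 and 1.13 at d6. In C2C12-pMirn378 cells it was 1.64 and 1.39, all 4 called.

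*Rapsn*, the scaffold gene, rose with little spread between arrays. C2C12-pMirn0 arrays read 956, 901 and 859 at d0 and 1917, 1908 and 2102 at d3 untreated. The log2 ratio was 1.13 (SE 0.08, adjusted p = 1.0e-10) at d3 and 1.11 at d6. In C2C12-pMirn378 cells the AEV was 1098 ± 15.9 (SD, n = 3) at d0, against 906 ± 48.5 in control cells (log2 ratio 0.28, adjusted p = 0.06 in limma, not called), and 2136 ± 39.5 at d3. The ratios over d0 in this line were 0.96 and 0.74, both called.

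**Figure D1:**
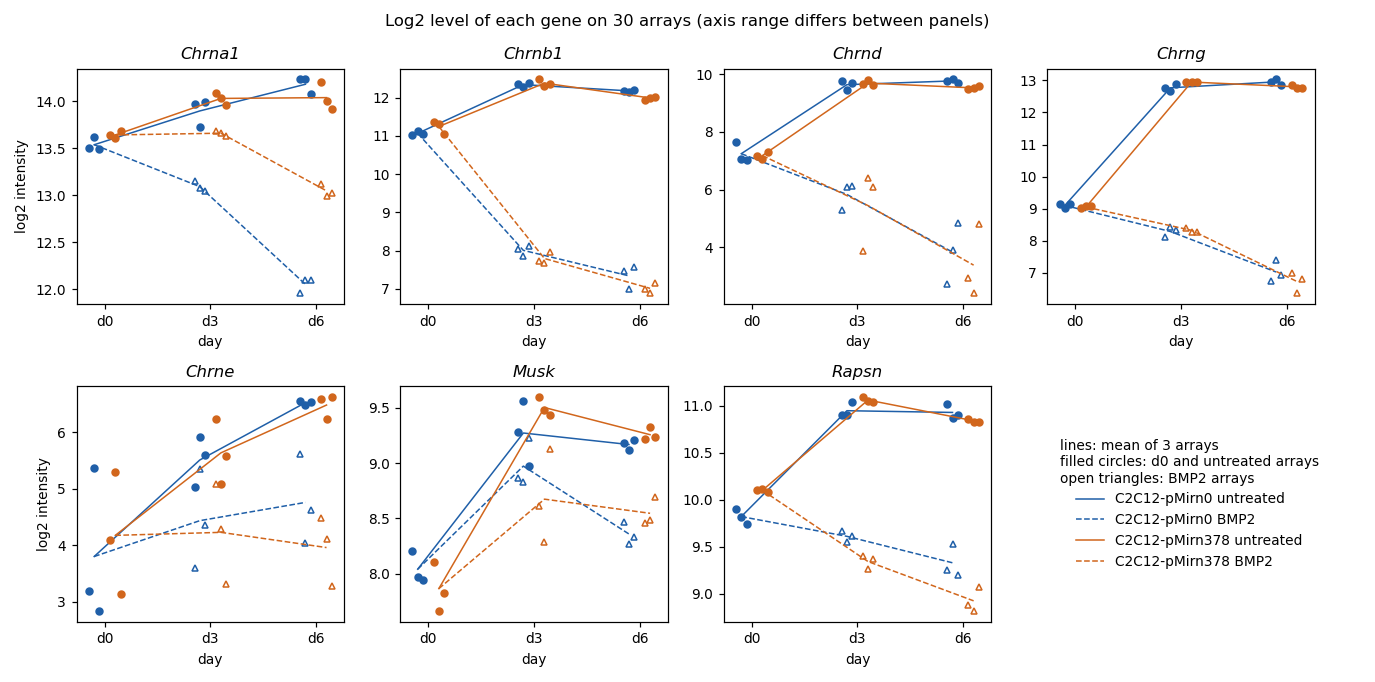
Log2 intensity of the representative probe set of each gene (vertical axis, range set per panel) against day (horizontal axis), with 1 point per array (blue C2C12-pMirn0, orange C2C12-pMirn378, open triangles BMP2) and lines through the means of 3 arrays. Untreated and BMP2 levels separate widely in *Chrnb1*, *Chrnd* and *Chrng*, the *Chrna1* BMP2 lines of C2C12-pMirn0 and C2C12-pMirn378 cells lie apart by 1.00 at d6, and *Musk* arrays with BMP2 lie above d0.

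With BMP2 the genes split. By d6 *Chrnb1*, *Chrnd* and *Chrng* had fallen below their d0 levels in both lines, *Chrna1* was called below d0 in C2C12-pMirn0 cells and *Rapsn* in C2C12-pMirn378 cells, *Musk* was called above d0 at d3 in both lines, and *Chrne* was not called in either direction. In C2C12-pMirn0 cells 1 gene was called higher and 2 lower at d3 over d0, where 18.3% of all probe sets were called, and 0 higher and 4 lower at d6, where 18.1% were. In C2C12-pMirn378 cells 1 was higher and 3 lower at d3 (20.7% of all probe sets called), and 1 higher and 4 lower at d6 (21.0%). With only the groups compared in the fit, the C2C12-pMirn0 count at d3 went from 3 to 1 and the C2C12-pMirn378 count at d6 from 5 to 3.

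*Chrnb1* went from 2085, 2229 and 2137 at d0 to 265, 233 and 278 at d3 with BMP2 and to 176, 128 and 189 at d6 in C2C12-pMirn0 cells. Every array with BMP2 was below every d0 array. The log2 ratio over d0 was -3.06 at d3 and -3.73 (SE 0.12, adjusted p = 9.2e-17) at d6, and in C2C12-pMirn378 cells -3.45 and -4.23. It was the gene of the 7 with the largest fall below d0 at d3 in each line.

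*Chrng* read 279, 340.3 and 319 at d3 and 108, 169 and 121 at d6 with BMP2 in C2C12-pMirn0 cells, all under the d0 arrays. Log2 ratios over d0 were -0.81 at d3 and -2.08 (SE 0.14, adjusted p = 2.8e-11) at d6. They were -0.73 and -2.33 in C2C12-pMirn378 cells, and all 4 were called.

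*Chrnd* read 39.7, 67.5 and 69.4 at d3 with BMP2 and 6.74, 15.0 and 28.9 at d6 in C2C12-pMirn0 cells. At d6 all arrays lay below the d3 arrays and in the range where dim probe sets scatter. The log2 ratio over d0 was -1.41 at d3 (adjusted p = 0.059, not called) and -3.41 at d6 (SE 0.56, adjusted p = 3.2e-05), and in C2C12-pMirn378 cells -1.73 (not called) and -3.79. With values under 50 set to 50 the d6 ratios became -1.60 and -1.54, so their size depends on values near the bottom of the scale.

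*Chrna1* at d6 with BMP2 read 3978, 4398 and 4375 in C2C12-pMirn0 cells and 8888, 8179 and 8342 in C2C12-pMirn378 cells. Both groups lay below their own d0 arrays. The log2 ratio over d0 was -1.49 (SE 0.08, adjusted p = 9.6e-13) in the first line, and -0.60 (adjusted p = 2.2e-06) in the second, where it did not pass the size limit. At d3 it was -0.45 and 0.02, neither called.

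*Rapsn* at d6 with BMP2 read 612, 739 and 590.4 in C2C12-pMirn0 cells and 472, 451 and 540.4 in C2C12-pMirn378 cells, each below all d0 arrays of its line. Its log2 ratios over d0 were -0.49 (adjusted p = 3.1e-05, under the size limit) and -1.17 (SE 0.08, called). *Musk* read 468, 454 and 598 at d3 with BMP2 and 355, 309 and 322 at d6 in C2C12-pMirn0 cells, all above the d0 arrays of that line. Its log2 ratio over d0 was 0.93 at d3 (SE 0.17, adjusted p = 1.0e-04) and 0.32 at d6 (95% interval -0.03 to 0.67, not called). In C2C12-pMirn378 cells it was 0.81 and 0.68, both called, with the d6 call lost without C2C12-pMirn378 d0 replicate 2 or 3 or d6 BMP2 replicate 2 or 3 (0.58 to 0.71) and the d3 call lost without d3 BMP2 replicate 3 (0.58).

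**Figure D2:**
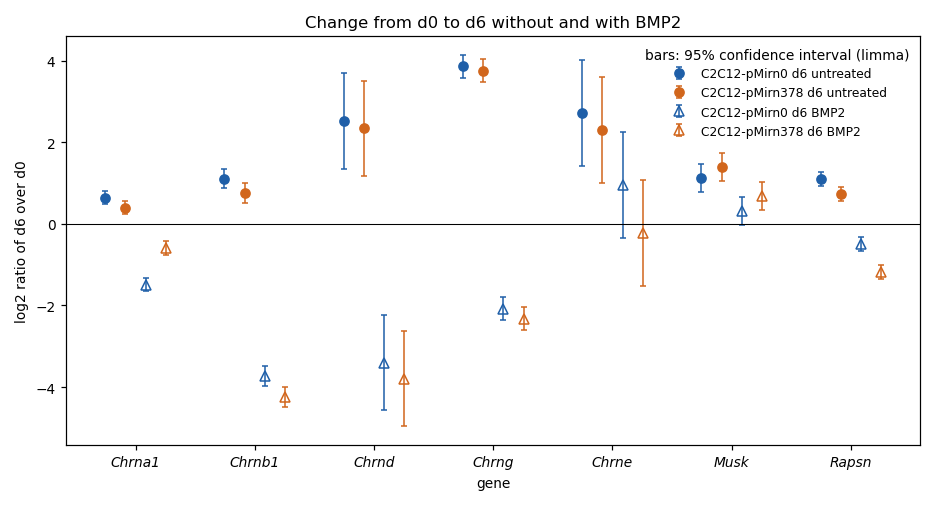
Log2 ratio of d6 over d0 (vertical axis) for each gene (horizontal axis) in both lines, untreated (filled circles) and with BMP2 (open triangles), with 95% confidence intervals. Untreated ratios are above 0 for all 7 genes, and with BMP2 they run from -4.23 for *Chrnb1* in C2C12-pMirn378 cells to 0.96 for *Chrne* in C2C12-pMirn0 cells, which was not called.

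Set against untreated cells of the same day, most of these genes were called lower with BMP2 and none higher. In C2C12-pMirn0 cells 5 of 7 were called lower at d3 (15.4% of all probe sets called in either direction) and 6 of 7 at d6 (17.9%, with 9.66% higher and 8.24% lower). In C2C12-pMirn378 cells 5 were lower at d3 (18.0%, and 3 genes with only the groups compared in the fit) and 7 at d6 (17.4%). The order of the d6 log2 ratios in C2C12-pMirn0 cells was *Chrng* -5.93 (SE 0.14, adjusted p = 3.8e-19), *Chrnd* -5.92, *Chrnb1* -4.84, *Chrna1* -2.13, *Chrne* -1.77 (not called, adjusted p = 0.032), *Rapsn* -1.60 and *Musk* -0.81. As AEVs, *Chrng* was 7953 ± 462 untreated and 132 ± 32.4 with BMP2. With values under 50 set to 50, *Chrnd* changed by -4.12 in place of -5.92 and *Chrne* by -0.88, which was then called, while *Chrng* stayed at -5.93. The floor leaves no spread between the *Chrne* BMP2 arrays, so this *Chrne* call adds no support. The C2C12-pMirn378 ratios at d6 were -6.08 for *Chrng*, -6.13 for *Chrnd*, -4.98 for *Chrnb1*, -2.52 for *Chrne*, -1.91 for *Rapsn*, -0.99 for *Chrna1* and -0.71 for *Musk*. Of these, the *Chrne* and *Musk* calls were each lost without any of 5 of the 6 arrays compared (*Chrne* -2.65 to -2.18, *Musk* -0.73 to -0.67). At d3 the *Musk* ratio was -0.30 in C2C12-pMirn0 cells (not called) and -0.83 in C2C12-pMirn378 cells (called, but lost at -0.63 without C2C12-pMirn378 d3 BMP2 replicate 2). This difference between the lines was not called in the interaction (-0.53, adjusted p = 0.29).

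Between d3 and d6 calls were made with BMP2 and not without it, and both sides depended on the settings: with only the groups compared in the fit the BMP2 calls went from 3 to 0 in each line, and a floor of 50 gave 1 untreated call in each line (*Chrne*, 0.79 and 0.64). That floor leaves no spread in the *Chrne* d0 and BMP2 groups, which share the standard error, so these *Chrne* calls rest partly on the floor. In limma none of the 7 genes was called for untreated d6 over d3 in either line, with 1 and 2 genes at an unadjusted p under 0.05, where 1.94% and 1.83% of all probe sets were called. With BMP2, 3 genes were called lower in C2C12-pMirn0 cells (2.46% of all probe sets) and 3 in C2C12-pMirn378 cells (5.70%), and they were *Chrna1*, *Chrnb1* and *Chrng* in both. Their log2 ratios were -1.04, -0.67 and -1.26 in C2C12-pMirn0 cells and -0.61, -0.78 and -1.60 in C2C12-pMirn378 cells. The *Chrnb1* call in C2C12-pMirn0 cells was lost without d6 BMP2 replicate 2 of that line (-0.50), and the *Chrna1* call in C2C12-pMirn378 cells without d6 BMP2 replicate 2 of that line (-0.59). *Chrnd* had larger ratios, -2.0 and -2.06, which were not called (SE 0.56, adjusted p = 0.023 and 0.012).

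The lines were compared in each condition. With 1 transduced and sorted line per construct, an effect of miR-378 overexpression cannot be told apart from other differences between the lines. Without BMP2 limma called none of the 7 genes at d0 (0.763% of all probe sets called), d3 (0.419%) or d6 (0.160%), with 1, 0 and 0 genes at an unadjusted p under 0.05. For the 5 genes other than *Chrnd* and *Chrne* the 95% intervals of these log2 differences lay between -0.53 and 0.58, each from the brightest probe set. The second-brightest *Chrng* probe set gave -0.38 at d0 (95% interval -0.57 to -0.20, not called), with arrays of the lines that did not overlap. On d3 and d6 untreated it gave 0.21 and -0.25, neither called. For *Chrnd* and *Chrne* the intervals were wide and ran from -1.41 to 1.67. Their standard errors, 0.56 and 0.63, were set by all 10 groups, including dim ones. At d6 untreated the log2 SDs in C2C12-pMirn0 and C2C12-pMirn378 cells were 0.06 and 0.05 for *Chrnd* (ratio -0.24). For *Chrne* they were 0.03 and 0.22 (ratio -0.04). There the intervals are wider than the spread of the arrays compared. At d0 the *Chrne* arrays did scatter (SD 1.37 and 1.08).

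With BMP2 the lines differed in *Chrna1*. At d3 limma called none of the 7 genes (3.08% of all probe sets called, 2 of the 7 at an unadjusted p under 0.05), and at d6 it called 1 higher and 0 lower (1.83%, with 0.993% higher and 0.836% lower). *Chrna1* read 9121, 8660.5 and 8428 in C2C12-pMirn0 cells and 13206, 12960.2 and 12704 in C2C12-pMirn378 cells at d3 with BMP2. At d6 the arrays were 3978, 4398 and 4375 against 8888, 8179 and 8342. Every C2C12-pMirn378 array was above every control array on both days. The log2 ratio of C2C12-pMirn378 over C2C12-pMirn0 was 0.57 at d3 (SE 0.08, adjusted p = 3.0e-05, just under the size limit) and 1.00 at d6 (SE 0.08, adjusted p = 2.8e-08). Without C2C12-pMirn0 d3 BMP2 replicate 1 the d3 ratio was 0.60 and passed.

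The effect of BMP2 on *Chrna1* itself differed between the lines at d6. The interaction was 1.14 on the log2 scale (SE 0.11, adjusted p = 1.8e-06), which compares a change of -2.13 in C2C12-pMirn0 with -0.99 in C2C12-pMirn378 cells, and it was the 1 call among the 7 genes (1.27% of all probe sets called). At d3 it was 0.44 (adjusted p = 0.032), and none of the 7 was called there, with 3 at an unadjusted p under 0.05 and 1.24% of all probe sets called. The d6 interaction stayed between 1.08 and 1.22, and called, with each of the 12 arrays left out in turn. It missed the threshold when only the 4 groups compared entered the fit (adjusted p = 0.0058), as did the line ratio with only its 2 groups (adjusted p = 0.029), at the same log2 ratios.

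None of the other members was called between the lines at d6 with BMP2. *Rapsn* was lower in C2C12-pMirn378 cells with arrays of 472, 451 and 540.4 against 612, 739 and 590.4 (log2 ratio -0.40, SE 0.08, adjusted p = 0.0021, under the size limit). *Chrnb1* was at -0.33 (95% interval -0.57 to -0.08), *Chrng* at -0.30 (-0.59 to -0.01), *Chrnd* at -0.45 (-1.62 to 0.71), *Chrne* at -0.80 (-2.10 to 0.50) and *Musk* at 0.19 (-0.16 to 0.54). These intervals rest on a standard error set by all 10 groups. The log2 SDs of the C2C12-pMirn0 and C2C12-pMirn378 arrays compared were 0.34 and 0.33 for *Chrng*, and 0.30 and 0.14 for *Chrnb1*. With overlapping arrays for both genes, their intervals are not to be read as showing a difference. The lines also differed in marker lists. Of 15 myotube markers 9 were called lower in C2C12-pMirn378 cells at d6 with BMP2, with a median of -0.94, and their summed intensity was 17735 to 20064 against 29006 to 31363, so that *Chrna1* moved against this list. Of 7 osteoblast markers 2 were higher (*Alpl* 1.32 and *Sp7* 1.08), with sums of 6567 to 8401 against 3101 to 3498. At d3 with BMP2 the sum of 7 cycling-cell markers was 15224 to 15716 in C2C12-pMirn378 arrays and 3816 to 4198 in control arrays, and at d6 it was 1964.5 to 2179 against 2089.8 to 2122. *Tubb3*, of the 8 neuron and Schwann cell markers, was called higher at d6 with BMP2 (1.41). Of 5 adipocyte markers none was called by limma, or lay at an unadjusted p under 0.05. The summed intensity of these 5 at d6 with BMP2 was nevertheless 2834.9 to 2967.6 in C2C12-pMirn378 arrays against 4341.5 to 4589.9 in control arrays. The part of these marker lists in the *Chrna1* difference was not tested.

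**Figure D3:**
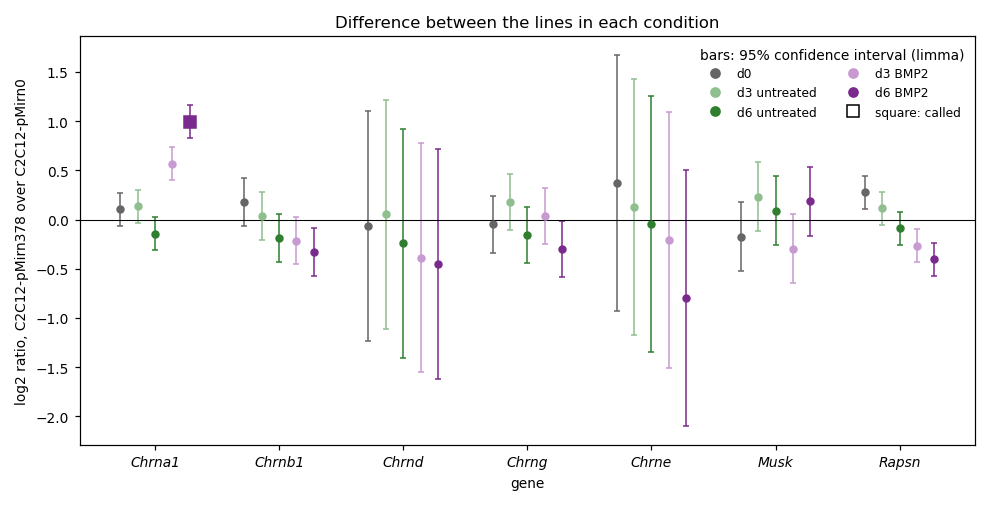
Log2 ratio of C2C12-pMirn378 over C2C12-pMirn0 cells (vertical axis) for each gene (horizontal axis) in the 5 conditions, with 95% confidence intervals and a square for a called difference. The *Chrna1* ratios with BMP2, 0.57 and 1.00, stand above 0, and the intervals of *Chrnd* and *Chrne* are the widest.

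*Chrng* is measured by 3 probe sets, and they did not give the same account. The second-brightest tracked the first over the days, with C2C12-pMirn0 arrays of 268, 246 and 267 at d0, 5599, 5982 and 5216 at d6 untreated and 37.3, 41.0 and 44.9 at d6 with BMP2. At d6 with BMP2 the C2C12-pMirn378 arrays of this probe set were 22.6, 20.3 and 22.4, below all control arrays. Its log2 ratio between the lines was -0.91 (SE 0.09, adjusted p = 3.0e-07, called), but all 6 of these arrays lie under 50 and with values under 50 set to 50 no difference is left. The brightest gave -0.30 with overlapping arrays of 128, 82.2 and 112 against 108, 169 and 121. Its interaction of line and BMP2 at d6 was -0.66 (SE 0.12, adjusted p = 0.0024, called), against -0.14 for the brightest (adjusted p = 0.81), and with the floor of 50 it was 0.25 (adjusted p = 0.16), the opposite sign. The third lay between 1.72 and 46.3 on all arrays and was called in no comparison. The line difference of *Chrng* at d6 with BMP2 therefore depends on the probe set and on values under 50, while its rise untreated over d0 and its fall with BMP2 against untreated cells were called with both bright ones. Against d0, the fall at d3 with BMP2 in C2C12-pMirn378 cells was called with the brightest and not with the second-brightest (-0.52, under the size limit).

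**Figure D4:**
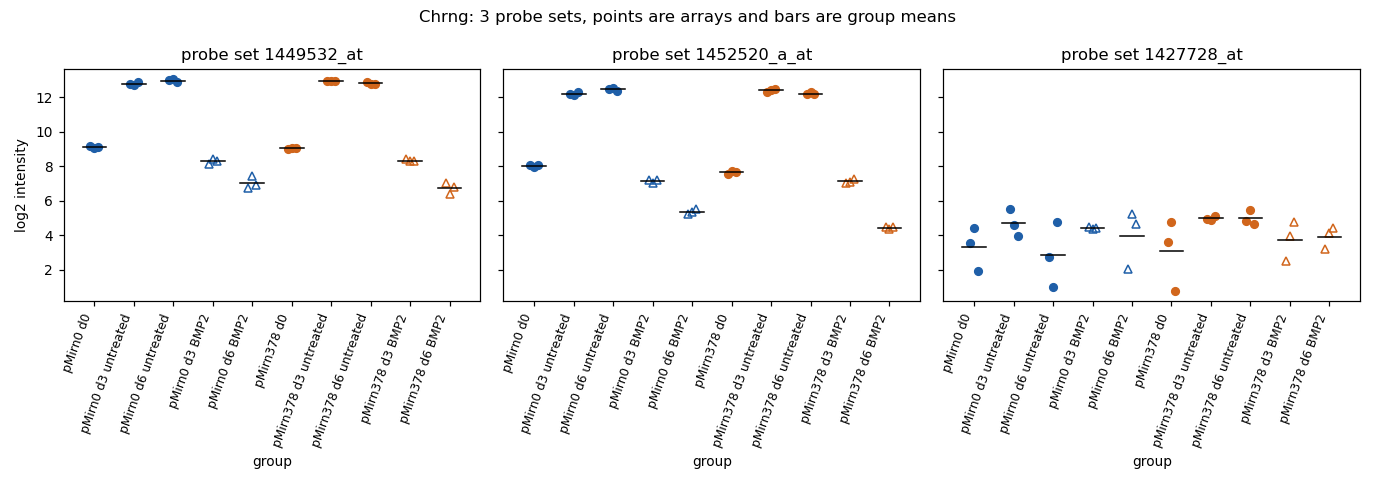
Log2 intensity (vertical axis) of the 3 *Chrng* probe sets in the 10 groups (horizontal axis), with 1 point per array (blue C2C12-pMirn0, orange C2C12-pMirn378, open triangles BMP2) and a bar at the mean of 3. The 2 probe sets on the left rise untreated and fall with BMP2, and the third stays between intensities of 1.72 and 46.3.

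Over the 10 group means *Chrnd* spanned 6.38 on the log2 scale, *Chrng* 6.23, *Chrnb1* 5.37, *Chrne* 2.72, *Rapsn* 2.13, *Chrna1* 2.13 and *Musk* 1.64, against a median of 1.04 for the brighter probe sets of the array. *Chrne* belongs to the dimmer probe sets, whose replicate SD is larger, so that median is no measure for its span. With values under 50 set to 50, *Chrnd* spanned 4.12 and *Chrne* 0.88, below *Chrng* and *Chrnb1*, which did not move. All 7 had an untreated d3 or d6 group as their highest. The lowest was C2C12-pMirn378 d6 with BMP2 for *Chrnb1*, *Chrnd*, *Chrng* and *Rapsn*, C2C12-pMirn0 d6 with BMP2 for *Chrna1*, and d0 for *Musk* and *Chrne*. In the order of the groups the arrays of *Chrna1* separated the 4 untreated d3 and d6 groups, of which those next to each other in rank overlapped, from the rest, and C2C12-pMirn0 d6 with BMP2 from all others. As a description over 10 groups from 2 lines, *Chrng* and *Rapsn* had the highest Pearson r among members (0.981), followed by *Chrnd* with *Rapsn* (0.978) and *Chrng* with *Chrnd* (0.975). The lowest were *Chrnb1* with *Musk* (0.385) and *Chrna1* with *Musk* (0.485).

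Among 10271 other genes, those with the course most like each member over the same 10 group means are given with their r. For *Chrng* they were *Apool* (0.998), *Tnnt1*, the slow troponin T gene (0.997), and *Apobec2* (0.997). For *Chrnd* they were *Ttn*, the titin gene (0.994), *Synpo2l* (0.993) and *Mymx*, the fusion micropeptide gene (0.990). For *Chrnb1* they were *Klhl30* (0.997), *Tmem64* (0.995) and *Acadl* (0.994). For *Rapsn* they were *Ryr1*, the calcium release channel gene (0.996), a probe set that the platform table assigns to *Mir133b* (0.994), which is no measure of the mature miRNA, and *Smyd1* (0.994). For *Chrna1* they were *Armcx6* (0.976), *Lactb* (0.967) and *Lrp11* (0.961). For *Musk* they were *Akap9* (0.977), *Trappc2* (0.970) and *Nipsnap2* (0.967), and for the dim *Chrne* *Ppm1k* (0.986), *Vti1b* (0.974) and *Timm29* (0.974).

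Other genes of the neuromuscular junction were called in both directions, and their counts are to be read against the shares of all probe sets: 9.18% higher and 11.0% lower for C2C12-pMirn0 d6 untreated over d0, 9.66% and 8.24% for d6 BMP2 over untreated, and 0.993% and 0.836% for the lines at d6 with BMP2. Of 37 measured synapse organisers and anchors, 9 were called higher and 7 lower for C2C12-pMirn0 d6 untreated over d0, and 5 higher and 13 lower for d6 BMP2 over untreated. Their median log2 ratios were 0.34 and -0.29, against -0.13 and 0.12 for all probe sets. *Erbb3*, a neuregulin receptor gene, had log2 ratios of 2.36 and -4.85 in these comparisons, *Sntb1*, a syntrophin gene, 2.14 and -3.63, and *Lama4*, a laminin chain gene, 2.89 and 3.72. In C2C12-pMirn378 cells 2 of the 37 were lower than in control cells at d6 with BMP2, *Nrg1* at -1.19 and *Dtna* at -0.80. The course of *Erbb3* and *Sntb1* thus had the sign of the receptor subunits, and *Lama4* rose in both.

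Of 25 measured regulators of synaptic genes, 8 were higher and 8 lower for C2C12-pMirn0 d6 untreated over d0, led by *Mef2c* (4.81), *Myf6* (4.03) and *Etv4* (-2.52). For d6 BMP2 over untreated 5 were higher and 7 lower, led by *Mef2c* (-4.50), *Myog*, the myogenin gene (-3.53), and *Msc* (-2.83). Between the lines at d6 with BMP2 0 were higher and 5 lower in C2C12-pMirn378 cells, the largest being *Myog* (-0.92), *Myf5* (-0.78) and *Mef2c* (-0.66). The study shows *Myog* and *Mef2c* as markers from these arrays, so they are not independent evidence.

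Of 25 measured genes of receptor assembly and turnover, 4 were higher and 1 lower for C2C12-pMirn0 d6 untreated over d0, close to the 20.2% of all probe sets called there, led by *Cav3*, the muscle caveolin gene (4.78), *Trim63*, a muscle ubiquitin ligase gene (3.85), and *Fbxo32* (1.58). For d6 BMP2 over untreated 2 were higher and 3 lower, near the 17.9% of all probe sets, led by *Trim63* (-4.82), *Cav3* (-4.56) and *Myo5a* (0.96). *Cav3* was the 1 gene of this list called between the lines with BMP2 at d6 (-1.65). Of 10 measured neuronal receptor subunit genes limma called 0 in each of these 3 comparisons, with 1, 0 and 0 at an unadjusted p under 0.05. The 15 myotube markers were called higher in 15 of 15 for C2C12-pMirn0 d6 untreated over d0 and lower in 14 of 15 for d6 BMP2 over untreated. All 7 receptor and postsynaptic genes had the same signs, with 7 called in the first comparison and 6, all but *Chrne*, in the second. The part of myotube number in the receptor genes' changes was not tested.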

How the data were processed

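RNA of 30 cultures was hybridised to Affymetrix GeneChip Mouse Genome arrays. The authors quantified the scans in Command Console, and their methods state RMA in R 2.4.1 with quantile normalization. The deposited unit is a linear intensity, and no detection calls were used. Array medians of 68.0 to 82.7 show that the deposited values do not share 1 distribution, although quantile normalization is stated. How the deposited values relate to that step was not tested. Here log2 of each intensity was used with no offset. Then limma 3.58.1 in R 4.3.3 fitted the 10 group means over all 45101 probe sets and 30 arrays, with eBayes (20 residual and 1.2 prior degrees of freedom) and 23 contrasts. The Benjamini-Hochberg adjustment was made for each contrast on its own. The number of arrays, 3 in each group, limits the precision. Columns were matched to samples by their labels, and no column was left unmatched.

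The 7 genes, the gene lists and the marker lists were chosen with earlier results of these data known. Named besides the members are, for each member, the 3 genes most alike over the group means (brighter probe sets, no _x_at) and, from each list, the called genes with the 3 largest log2 ratios in 3 comparisons. Genes of these lists without a probe set of 1 symbol were not analysed here. For C2C12-pMirn0 d6 BMP2 over untreated, of the neuron and Schwann cell and adipocyte markers *Tubb3* was called lower (-1.05) and *Fabp4* and *Pparg* higher (7.22 and 2.17). The limma fit was tested on simulated data for that same comparison, with changes placed in brighter probe sets and equal spread in all groups. Changes in dim probe sets, unequal spread between groups and the interaction were not simulated. Alternatives were a replicate block, dim probe sets left out, only the groups compared in the fit, trended robust eBayes, array weights, quantile normalization, an offset of 16, a floor of 50, the second-brightest probe set and each array left out.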

Additional observations from a re-analysis of the deposited data

Results flagged for a closer look

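The change of *Chrna1* with BMP2 at d6 differed between the lines by a test of the difference itself, with an interaction of 1.14 on the log2 scale. The second-brightest probe set of *Chrng* showed an interaction of the opposite sign at d6, -0.66, which the brightest *Chrng* probe set did not show (-0.14, adjusted p = 0.81). Its BMP2 arrays at d6 all lie under 50 in both lines, and with values under 50 set to 50 the interaction was 0.25 (adjusted p = 0.16), so the sign turned and the call was lost. In untreated cells the d6 arrays of this second-brightest *Chrng* probe set all lay above the d3 arrays in C2C12-pMirn0 cells (log2 ratio 0.27) and all below them in C2C12-pMirn378 cells (-0.20), a difference of -0.46 that was not tested.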

How the results depend on the processing

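Of 70 called log2 ratios of the 7 genes, each from its brightest probe set, none changed direction in any alternative: of 571 values under other settings 543 kept their call and 28 lost it, and of 426 values with 1 array left out 391 kept it and 35 lost it. With only the groups compared in the fit, the number of genes called went from 3 to 1 for C2C12-pMirn0 d3 BMP2 over d0, from 5 to 3 for C2C12-pMirn378 d6 BMP2 over d0 and for C2C12-pMirn378 d3 BMP2 over untreated, from 3 to 0 for BMP2 d6 over d3 in each line, and from 1 to 0 for the line difference with BMP2 and the interaction at d6; this fit has fewer arrays to estimate the spread. A floor of 50 moved untreated d6 over d3 from 0 to 1 in each line (*Chrne*, 0.79 and 0.64), and the second-brightest probe set moved the line difference with BMP2 and the interaction at d6 from 1 to 2 (*Chrng*). Leaving out 1 array gave 0 to 1 for the line difference at d3 with BMP2. Dim signal limits *Chrne* and, with BMP2, *Chrnd*. For *Chrne* the floor also takes away the spread of the d0 and BMP2 arrays, so its calls with the floor add no support. For the second-brightest *Chrng* probe set, in alternatives chosen after seeing the data, the d6 interaction of -0.66 turned to 0.25 with a floor of 50 and was -0.34 with an offset of 16, and the line difference of -0.91 became 0 and -0.59, none called. Replicate numbers were not taken to pair the arrays, because not every same-numbered pair correlated above 0.1. Deviations of same-numbered arrays of different groups correlated at -0.168 to 0.229 (median 0.0407), with 24 of 135 over 0.1, against a median of -0.0162 and 17 of 270 over 0.1 for arrays of other numbers. Same-numbered arrays thus correlated slightly more, and a demand on every pair is too strict to exclude a weak pairing. With the replicate block C2C12-pMirn0 d6 untreated over d0 still called 7 genes, and the *Chrna1* interaction at d6 was 1.14 (adjusted p = 2.9e-06).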
